A study of Homo sapiens with 12 samples.

Results

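Joint transfection of GADD45a and ING1b was compared with empty vector in HEK293T cells, a human embryonic kidney line, harvested 48 h after transfection. The comparison holds the 4 arrays whose titles name GADD45a+ING1b or Control, 2 independently transfected replicates a group, out of 12 Illumina bead arrays in all. Cells of the GADD45a+ING1b group received plasmids for human GADD45a and for full-length human ING1b, and Control cells received the empty vector. The other groups received GADD45a, ING1b, ING1bΔPHD (an ING1b that lacks its PHD domain), or GADD45a+ING1bΔPHD, also with 2 arrays a group. All groups share the line, the transfection reagent and the harvest time, and transient transfection leaves a mixture of cells with different amounts of plasmid. The question was which transcripts differ when both proteins are supplied, and whether those differences go beyond the ones seen with either protein or with an ING1b that lacks its PHD domain.

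GADD45a is a small stress-induced protein that binds chromatin and partner proteins and has been linked to local DNA demethylation through repair of the marked base. ING1b is a tumour suppressor of the inhibitor of growth family and a subunit of SIN3-HDAC complexes. Its PHD finger binds histone H3 trimethylated at lysine 4, a mark of active promoters, so the finger ties the protein to promoters that already carry that mark.

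The transfected genes were read first, on the scanner scale before any correction. GADD45A probe ILMN_1694075 read 744 and 1021 on the Control arrays and 160 and 149 on the arrays labelled GADD45a+ING1b, where it was not detected. The second GADD45A probe, ILMN_2052208, read 1497 and 1617 on the Control arrays and 1072 and 1127 on the arrays labelled GADD45a+ING1b (log2 -0.16 after normalization, SE 0.167, limma adjusted p = 0.636). Over all 12 arrays the first probe was not detected on any of the 6 with GADD45a in their label and was detected on the other 6, where it read 744 to 1088, and the second read 1152 to 1851 on the latter and 859 to 1127 on the former. After normalization the first probe differed by log2 -3.59 between GADD45a+ING1b and Control (SE 0.259, limma adjusted p = 0.000269 over all probes). With the mean over both probes GADD45A differed by -1.87 (limma adjusted p = 0.000242). On the scanner scale both probes thus went against the labels, and all directions below rest on the labels. Whether the plasmid's message carries either probe's target was not tested. An exchange of the arrays with and without GADD45a in their label was not tested, and it would turn the comparison into ING1b against GADD45a. Of the 4 ING1 probes 1 was detected, at 118 and 89.3 normalized units in Control and 114 and 125 in the arrays labelled GADD45a+ING1b, which overlapped (log2 0.22, SE 0.175, limma adjusted p = 0.539).

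Between 15404 and 16301 of the 47323 probes were detected on the 4 arrays, and the array medians lay between 129 and 138 scanner units. Among 10645 genes, each read at its brightest detected probe, replicates of the groups correlated at 0.980 (Control) and 0.985 (GADD45a+ING1b). Of 9 HEK293 line markers on the array 6 were detected on all 4 arrays (CDH2, VIM, KRT8, KRT18, NEFL and NEFM), while the kidney factors PAX2, PAX8 and LHX1 were detected on none. The 6 endothelial markers were detected on none of the 4 arrays, nor were 8 of 11 fibroblast and 5 of 6 hepatocyte markers. COL1A1, a fibrillar collagen, read 64.6 and 64.9 in Control and 50.1 and 58.7 with both plasmids, where it was not detected (limma adjusted p = 0.504), and the hepatocyte marker ALB read 79.7 and 95.4 in Control and 198 and 148 with both plasmids (log2 0.97, SE 0.239, limma adjusted p = 0.061). Of 11 blood cell markers 9 were detected on none, and CD68 was the 1 detected on all 4. The summed level of the 11, undetected members included, was 681 to 776 normalized units in Control and 1040 to 1067 in GADD45a+ING1b. The sum of the HEK293 line markers was 12107.5 to 15017.7 and 9894 to 11906 in the same order. Hepatocyte markers summed to 252 to 268 and 339 to 348, fibroblast markers to 1089 to 1138 and 926 to 1132, and endothelial markers to 158 to 173 and 159 to 167. With 2 arrays a group, precision is limited by the number of arrays, and p-values measure the spread between these transfections. In bulk RNA, a change in the share of transfected or surviving cells and a change in RNA per cell cannot be told apart.

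The arrays labelled GADD45a+ING1b differed from Control in 286 genes, of which 168 rose and 118 fell, where rose and fell mean a limma adjusted p under 0.05. Those are 1.58% and 1.11% of the 10645 genes, 2.69% together. The rises were larger than the falls at their extremes. Differences of the 168 genes ran from 0.61 to 5.23 on the log2 scale with a median of 1.13, and 103 were at least 2-fold and 23 at least 4-fold in the fit. The 118 falls measured 0.59 to 2.11 with a median of 0.99, and 57 were at least 2-fold and 1 at least 4-fold. Of the genes that rose 37 were not detected on either Control array, and of those that fell 32 were not detected on either GADD45a+ING1b array. For these a fold is given below as a lower bound, with the dim group at its detection floor. Over all genes both GADD45a+ING1b arrays lay above both Control arrays for 2260 (21.2%) and below them for 2777 (26.1%), and the median difference was -0.03. A fit that blocks on the replicate number gave 506 rises and 480 falls, among them all 286 that passed without it. Scaling each array to its median gave 126 rises and 1391 falls and moved the median of all genes to -0.30, and the medians of 15 of the 39 gene sets below, between 0.02 and 0.17 otherwise, fell below 0 there, so list medians are read against that of all genes. The counts were 216 and 211 with Control replicate 1 left out, 49 and 16 with Control replicate 2 left out, 40 and 16 with GADD45a+ING1b replicate 1 left out, and 48 and 20 with GADD45a+ING1b replicate 2 left out.

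**Figure D1:**
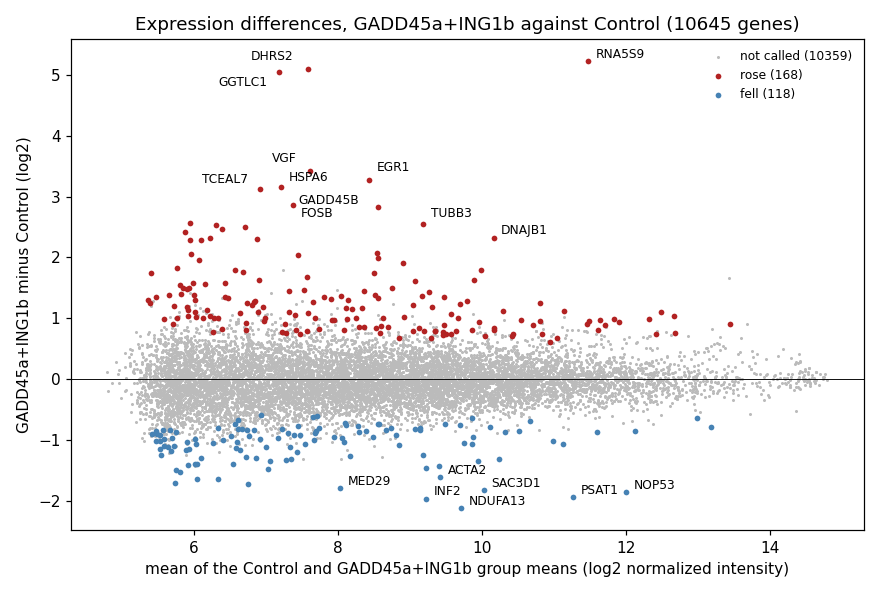
Difference between the GADD45a+ING1b and Control group means (log2, n = 2 arrays a group) against the mean of the 2 group means, 1 point a gene for 10645 genes. Red points are the 168 genes that rose and blue points the 118 that fell (limma adjusted p under 0.05). RNA5S9, DHRS2 and GGTLC1 stand above the other genes, and no fall passes 2.11.

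Immediate-early genes are transcription factors and signalling regulators that cells switch on within minutes of a stimulus, without new protein synthesis. Of 25 measured, 4 rose (EGR1, FOSB, ARC and ZFP36) and 0 fell, and their median was 0.62 beside -0.03 over all genes. EGR1, a zinc finger transcription factor, read 110.1 and 112 in Control and 1295 and 889.6 normalized units in GADD45a+ING1b. It was 9.68-fold higher (log2 3.28, SE 0.247, limma adjusted p = 0.000181), with a wide gap between the groups, and read 112 and 117 with GADD45a alone and 469.6 and 393 with ING1b alone. FOSB, an AP-1 subunit, was detected on 1 of 2 Control arrays and read 49.9 and 75.7 there and 437 and 460.0 in GADD45a+ING1b (log2 2.87, SE 0.238, limma adjusted p = 0.000238). Its lowest level with both plasmids lay far above its highest in Control. ARC, which in neurons follows synaptic activity, was not detected in Control (36.1 and 27.0) and read 167 and 138, at least 2.76-fold higher (limma adjusted p = 0.000279). ZFP36, which promotes decay of messages with AU-rich elements, rose least of the 4, from 149.8 and 142 to 274 and 312 (log2 1.00, SE 0.18, limma adjusted p = 0.0213). The other 21 did not pass, among them FOS with 59.9 and 48.0 in Control and 112 and 88.7 in GADD45a+ING1b (log2 0.90, SE 0.283, limma adjusted p = 0.123), and the AP-1 subunit JUN, which read 3043 and 3588 in Control and 4586 and 4869 with both plasmids (log2 0.52, SE 0.175, limma adjusted p = 0.145). The count was 3 without Control replicate 2 or without either GADD45a+ING1b array, when ZFP36 was lost (limma adjusted p = 0.0934 to 0.124), and 3 with only the groups compared in the fit.

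EGR1 is a textbook target of serum response factor, which binds CArG boxes, and its RefSeq promoter window is shown because it holds 2 of them (chr5:138465229-138465528, plus strand, GRCh38.p14). The window runs from 250 bases before to 50 after the start, 5′ to 3′, and capitals mark the CArG boxes, whose first bases lie 105 and 83 before the start.
EGR1: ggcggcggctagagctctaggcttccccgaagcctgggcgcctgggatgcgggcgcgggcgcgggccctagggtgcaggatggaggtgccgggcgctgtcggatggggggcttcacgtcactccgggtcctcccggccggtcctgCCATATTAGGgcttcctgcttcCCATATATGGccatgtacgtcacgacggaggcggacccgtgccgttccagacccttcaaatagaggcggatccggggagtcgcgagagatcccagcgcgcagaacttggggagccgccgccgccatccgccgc
A CArG box was found on either strand in at least 1 window of 5 of the 130 genes that rose and had a window (3.85%), 1 of 93 that fell (1.08%) and 1.63% of the 8662 tested genes with a window. Of the 141 tested genes with a CArG box 5 rose and 1 fell, and their median difference was -0.10. The EGR site GCGTGGGCG was in 0 of the 130 that rose and in 1.74% of all tested genes with a window, and the AP-1 site TGANTCA in 9.23% and 6.53%. A match of letters is a description of the window only.

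GADD45B, the stress-induced paralog of GADD45A that activates the p38 and JNK kinase cascade, was the 1 gene called among the 4 measured of the GADD45 family list. It read 132 and 153 in Control, 938 and 1079 in GADD45a+ING1b, 116 and 121 with GADD45a alone and 545 and 694 with ING1b alone. Both arrays of the joint group were far above Control (7.07-fold, log2 2.82, SE 0.167, limma adjusted p = 3.39e-05) and above both ING1b arrays, a gap of 0.71 that did not pass (limma adjusted p = 0.191). Of 12 measured p38 and JNK pathway kinases 0 rose and 0 fell in limma, with or without the replicate block, 2 had an unadjusted p under 0.05, and the median was -0.04. The member with the smallest p was MAPKAPK5, a kinase downstream of p38 (log2 -0.33, SE 0.135, limma adjusted p = 0.225). ETV5, an ETS factor downstream of ERK signalling, was the 1 of 9 ERK feedback genes that rose, from 27.1 and 25.4 (not detected) to 73.9 and 57.1 (detected on 1 of 2 arrays), at least 1.18-fold higher (limma adjusted p = 0.00324). The list as a whole did not rise: its median was -0.22, 4 of the 9 lay above 0, and 0 fell. With the replicate block 2 rose and 1 fell.

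Neuronal and neuroendocrine genes encode secretory granule proteins, tubulin isotypes and synaptic proteins that are typical of neurons and hormone-secreting cells. Of 16 measured, 4 rose (VGF, TUBB3, NPTX2 and CHGA) and 0 fell, with a median of 0.15. VGF, the precursor of several secreted neuropeptides, read 63.9 and 56.2 in Control and 606 and 675 in GADD45a+ING1b. It was 10.7-fold higher (log2 3.42, SE 0.232, limma adjusted p = 9.9e-05), and its level was 88.7 and 89.5 with GADD45a alone, 217 and 249 with ING1b alone and 76.0 and 104 with GADD45a+ING1bΔPHD. The arrays labelled GADD45a+ING1b were above all of these, by 2.84 over GADD45a (limma adjusted p = 0.000379), 1.46 over ING1b (0.0306) and 2.85 over GADD45a+ING1bΔPHD (0.000319). TUBB3, the neuronal beta tubulin, read 251 and 229 in Control and 1418 and 1407 in GADD45a+ING1b (log2 2.56, SE 0.147, limma adjusted p = 3.39e-05), and 624 and 729.9 with ING1b alone. Its excess over ING1b alone was 1.07 (limma adjusted p = 0.014), and it was the 1 of 16 measured tubulins that rose. NPTX2, a secreted synaptic pentraxin, read 661 and 443 in Control and 1509 and 1079 with both plasmids (log2 1.24, SE 0.226, limma adjusted p = 0.0223). CHGA, chromogranin A of secretory granules, was not detected in Control (31.8 and 37.0) and read 70.3 and 65.8, at least 1.24-fold higher (limma adjusted p = 0.0314). Leaving out 1 array ended 2 of these calls by limma adjusted p: NPTX2 (0.147 to 0.16, without Control replicate 2 or GADD45a+ING1b replicate 1) and CHGA (0.078 to 0.175, without either Control array or either GADD45a+ING1b array). Under median scaling the list's median was -0.13, where 4 rose and 1 fell.

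**Figure D2:**
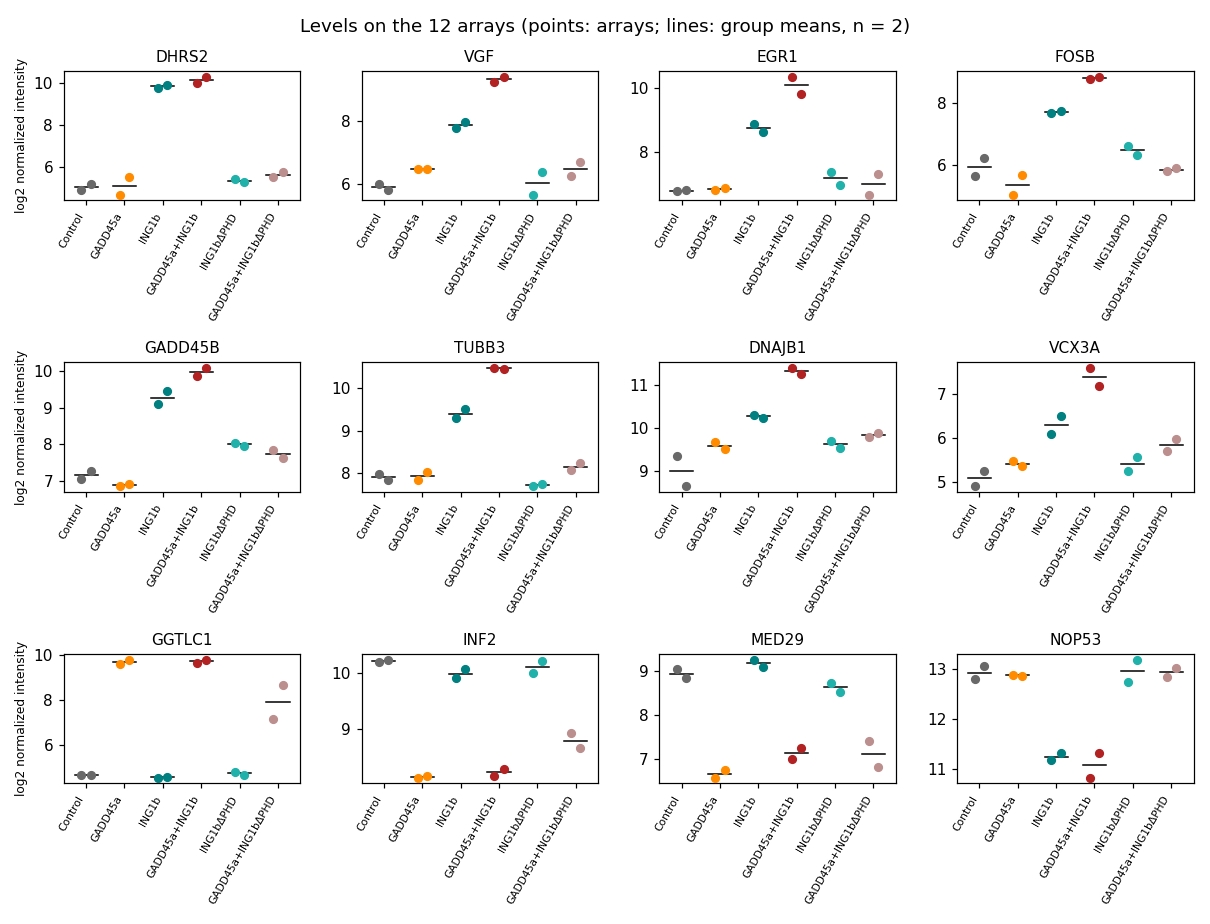
Log2 normalized intensity of 12 genes on the 12 arrays, 1 point an array, with a line at each group mean (n = 2). DHRS2, VGF, EGR1, FOSB, GADD45B, TUBB3, DNAJB1 and VCX3A were highest in GADD45a+ING1b, GGTLC1 was high with GADD45a with or without ING1b, INF2 and MED29 were low in the groups with GADD45a in their label, and NOP53 was low in ING1b and GADD45a+ING1b.

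VGF and CHGA are also known for a cAMP response element (CRE), the letters TGACGTCA, which is the site of CREB and ATF family factors. The palindrome was searched in all RefSeq promoter windows after these values were seen. It was in at least 1 window of 22 of the 130 genes that rose (16.9%), 0 of the 93 that fell, and 353 of the 8662 tested genes with a window (4.08%). The VGF window is shown in full and 6 others as the stretch around the match (chr7:101165520-101165819, minus strand; CGA at chr6:87095207-87095264, minus strand; CHGA at chr14:92923080-92923119, plus strand; GPR3 at chr1:27392570-27392609, plus strand; UBE2S at chr19:55407853-55407892, minus strand; ZNF143 at chr11:9460832-9460871, plus strand; LMCD1 at chr3:8501624-8501663, plus strand; RefSeq, GRCh38.p14). Each reads 5′ to 3′ on the gene's strand, and capitals mark the CRE.
VGF: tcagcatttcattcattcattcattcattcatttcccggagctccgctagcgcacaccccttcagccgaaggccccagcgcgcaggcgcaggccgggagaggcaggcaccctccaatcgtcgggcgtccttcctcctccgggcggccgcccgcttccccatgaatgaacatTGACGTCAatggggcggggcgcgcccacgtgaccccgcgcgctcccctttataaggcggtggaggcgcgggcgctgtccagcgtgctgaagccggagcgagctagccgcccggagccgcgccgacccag
CGA: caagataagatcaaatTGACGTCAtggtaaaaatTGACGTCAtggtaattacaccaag
CHGA: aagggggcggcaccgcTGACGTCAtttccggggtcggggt
GPR3: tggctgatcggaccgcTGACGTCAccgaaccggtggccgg
UBE2S: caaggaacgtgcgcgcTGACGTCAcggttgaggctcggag
ZNF143: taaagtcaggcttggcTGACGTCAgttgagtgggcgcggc
LMCD1: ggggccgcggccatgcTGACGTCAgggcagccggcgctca
The match begins 79 bases before the start in VGF, 54 in CHGA, 36 in GPR3, 88 in UBE2S, 164 in ZNF143 and 183 in LMCD1, and CGA holds 2, at 142 and 124. The flanks differ between these genes, and CGA is the 1 of the 7 shown with a repeat of the site.

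Levels of the genes with a CRE were then read one by one. CGA, not detected in Control, encodes the alpha subunit shared by the glycoprotein hormones and read 51.1 and 47.7 in Control and 116 and 101 in GADD45a+ING1b (at least 1.96-fold, limma adjusted p = 0.0314). GPR3, an orphan receptor that raises cAMP, read 38.1 and 34.0 in Control (not detected) and 98.0 and 103 with both plasmids (at least 1.82-fold, adjusted p = 0.0269). UBE2S, the ubiquitin-conjugating enzyme that extends chains for the anaphase-promoting complex, was not detected in Control either and read 48.9 and 35.1 in Control and 114 and 132 with both plasmids (at least 2.23-fold, limma adjusted p = 0.0131). In each of these the 2 arrays with both plasmids lay above the 2 Control arrays. So they did in all 168 genes that rose and in 21.2% of all genes. ZNF143, a transcription factor of many housekeeping promoters, read 477 and 294 in Control and 969.6 and 1051 with both plasmids (limma adjusted p = 0.0079). CSTF1, a subunit of the cleavage stimulation factor for message 3′ ends, read 105 and 44.9 in Control and 221 and 203 with both plasmids (detected on 1 of 2 Control arrays, adjusted p = 0.0315), and SLC25A25, a mitochondrial carrier of ATP-Mg and phosphate, read 737 and 439 in Control and 1586 and 1224 with both plasmids (0.0284). The others were H4C8, H2BC12, LMCD1, ZNG1C, TRMT44, ZFYVE27, ESS2, B3GAT3, DDX51, TRMO, SIRT4, SYAP1, TTC1 and CHMP1B. Over all 353 tested genes with a CRE, 6.23% rose, 0 fell, the median difference was 0.12 and 61.5% lay above 0. Of 8309 with no CRE in a window 1.30% rose, 1.12% fell, the median was -0.04 and 44.9% lay above 0. The CRE genes' median against the same Control arrays was 0.09 with GADD45a, 0.07 with ING1b and 0.09 with GADD45a+ING1bΔPHD. These genes are not independent of each other. Other promoter letters also differed in share, since a TATAAA was in 16.2% of the genes that rose and 8.47% of those tested, and a CCAAT in 56.2% and 44.3%, and the part of either in the counts was not tested. The CRE count was 16 rises and 7 falls without Control replicate 1, 3 rises with Control replicate 2 left out, 1 and 2 rises with the first or second GADD45a+ING1b array left out, 17 rises and 25 falls under median scaling (median -0.16 beside -0.30 over all genes), 2 rises with only the groups compared in the fit, and 44 rises and 7 falls with the replicate block.

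**Figure D3:**
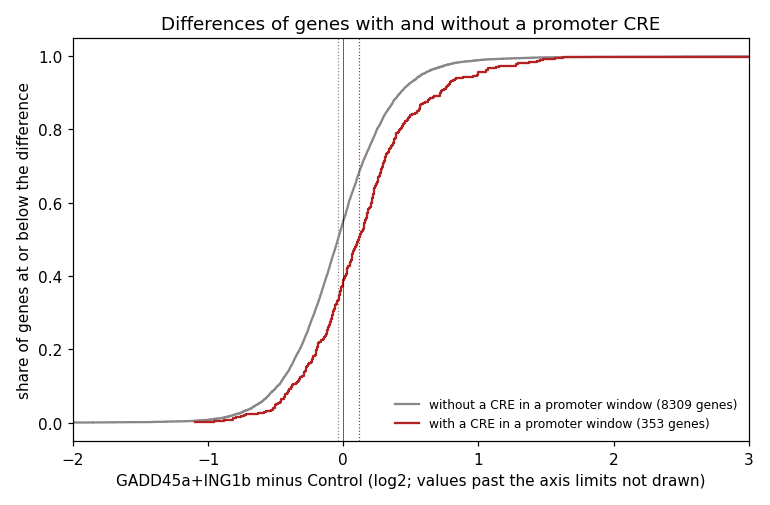
Cumulative share of genes against their difference between GADD45a+ING1b and Control (log2), for 353 tested genes with a CRE in a promoter window (red) and 8309 without (grey), with dotted lines at the medians, 0.12 and -0.04. The axis runs from -2 to 3 and leaves 1 gene with and 5 without a CRE undrawn. The red curve lies to the right of the grey one over the middle of the range.

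Heat shock proteins fold and refold other proteins, and the inducible members are switched on by heat shock factor 1. Of 19 measured, 2 rose (HSPA6 and DNAJB1) and 0 fell, with a median of 0.27. DNAJB1, an inducible Hsp40 that hands substrates to Hsp70, read 651 and 402 in Control and 2686 and 2456 in GADD45a+ING1b (5.02-fold, log2 2.33, SE 0.208, limma adjusted p = 0.000336). Control replicate 2 was the lowest array for DNAJB1, and the group gap was wider than that difference. HSPA6, an Hsp70 nearly silent without stress, was detected on 1 of 2 Control arrays (69.1 and 35.6) and read 394 and 495 (log2 3.15, SE 0.282, limma adjusted p = 0.000336). It has close Hsp70 paralogs, so its reading is uncertain. Both genes were also higher than with GADD45a alone, by 2.33 for HSPA6 (limma adjusted p = 0.00384) and 1.74 for DNAJB1 (0.00384), and not shown to differ from ING1b alone (0.89, 0.425 and 1.05, 0.0924). The stretch of the HSPA6 window around a heat shock element is shown (chr1:161524450-161524494, plus strand, RefSeq, GRCh38.p14), with capitals on the match to GAA, any 2 bases, TTC, any 2 bases and GAA, which lies on the opposite strand and begins 74 bases before the start.
HSPA6: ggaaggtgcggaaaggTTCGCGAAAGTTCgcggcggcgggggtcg
The element was in 0.769% of the genes that rose and 0.508% of the tested genes with a window. The list's median was 0.58 without Control replicate 1, where 5 rose, and 0.03 without Control replicate 2, where 2 rose.

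Other large rises fell outside these groups. DHRS2, an NADPH-dependent carbonyl reductase, was not detected in Control (30.0 and 36.3) and read 1021 and 1255 with both plasmids, at least 20.6-fold higher (limma adjusted p = 1.63e-05). It was also bright with ING1b alone (858 and 965), and not detected with GADD45a alone (26.0 and 46.5) or GADD45a+ING1bΔPHD (46.7 and 54.0), and of 10 measured DHRS family genes it was the 1 that rose. GGTLC1, named for a light chain of gamma-glutamyltransferase, has close paralogs, and whether its probe also matches them was not tested. The GGTLC1 probe was bright in the other single-plasmid group. It read 25.3 and 25.4 in Control, 797 and 879 in GADD45a+ING1b (at least 15.2-fold, adjusted p = 0.000139), 777 and 879.6 with GADD45a alone and 23.4 and 23.9 with ING1b alone, and a second probe of the gene differed by -0.58 without passing. TCEAL7, a small nuclear protein of the elongation factor A-like family, was not detected in Control (35.0 and 47.6) and read 415 and 306, at least 6.48-fold higher (adjusted p = 0.00021). It was the 1 of 10 measured TCEAL and BEX genes that rose. RASD1, a Ras-like GTPase induced by dexamethasone, read 34.8 and 36.6 in Control (not detected) and 205 and 189.9 with both plasmids (at least 3.58-fold, limma adjusted p = 0.00194). VASN, a membrane protein that binds TGF-beta, was detected on 1 of 2 Control arrays (59.9 and 32.2) and read 329 and 188 (log2 2.50, SE 0.393, limma adjusted p = 0.0113), and LSMEM1, a single-pass membrane protein, read 36.1 and 30.4 in Control (not detected) and 216 and 169 with both plasmids (at least 3.47-fold, 0.000449). LGALS1, the secreted lectin galectin-1, read 183 and 215 in Control and 620.4 and 719 with both plasmids (log2 1.75, SE 0.176, limma adjusted p = 0.000747), and 802 and 679 with ING1b alone. The VASN replicates spread widely, and the call was lost of VASN (0.0975 to 0.098, without Control replicate 2 or GADD45a+ING1b replicate 1).

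Cancer-testis genes are silent in most adult tissues outside the germ line, often under promoter DNA methylation. Of 37 on the array 9 were measured, and detection on the GADD45a+ING1b arrays alone was enough to count as measured. The count and median below therefore describe only the genes kept, not the whole list. Of the 9, 4 rose and 0 fell, with a median of 0.37. All 4 were X-linked VCX genes of near-identical sequence: VCX, VCX2, VCX3A and VCX3B. None was detected in Control, where VCX3A read 29.9 and 38.1, and with both plasmids it read 193 and 146 (at least 3.05-fold, limma adjusted p = 0.000449). VCX3B read 23.9 and 26.8 in Control and 172 and 131 with both plasmids (at least 2.73-fold, 0.000437), and was also above ING1b alone, where it read 45.0 and 46.1 (limma adjusted p = 0.014). VCX was at least 2.46-fold higher (0.00253) and VCX2 at least 1.76-fold (0.00772). The median of the whole list was higher with ING1b alone, 0.85 against the same Control arrays, than with both plasmids. It was -0.01 with GADD45a and 0.02 with GADD45a+ING1bΔPHD. Whether the probes tell these near-identical VCX genes apart was not tested, so they are not counted as 4 separate observations. The VCX2 call was lost without Control replicate 2 or GADD45a+ING1b replicate 2 (limma adjusted p = 0.0704 and 0.0709).

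Clustered histone genes make the core histones of newly copied chromatin, and most of their messages end in a stem-loop and lack the poly(A) tail that primes the labelling. Of 24 measured, 7 rose (H2AC18, H2AC19, H2BC5, H2BC11, H2BC12, H2BC21 and H4C8) and 0 fell, with a median of 0.64. H2AC18 read 553 and 535 in Control and 1991 and 1806 in GADD45a+ING1b (3.49-fold, log2 1.80, SE 0.15, limma adjusted p = 0.000238), and its second probe rose by 1.77. H2BC21 read 101 and 93.6 in Control and 279.8 and 248 with both plasmids (log2 1.44, SE 0.192, limma adjusted p = 0.00467), and H2BC11 187 and 144 in Control and 443 and 401 with both plasmids (log2 1.36, SE 0.192, limma adjusted p = 0.00648). The groups were well apart for each of these. H2AC19 differed by 1.37 and H2BC5 by 0.86, and the near-identical copies of these genes make the assignment of a probe to 1 of them uncertain. H2BC5 was higher with ING1b alone (754 and 628) than with both plasmids (427 and 419.5), a difference of -0.70 that did not pass (limma adjusted p = 0.137). Of 10 polyadenylated histone variants 1 rose, H2AJ, from 342 and 336 to 735 and 649 (log2 1.03, SE 0.159, limma adjusted p = 0.0102), with a median of 0.06. The H2AJ call was lost without Control replicate 2, without either GADD45a+ING1b array, and with only the groups compared in the fit. Genes of DNA replication and the G1/S transition, which peak in the same cell cycle phase as clustered histones, held 25 measured members of which 0 rose and 0 fell by limma, with 6 at an unadjusted p under 0.05 (median -0.09), while 2 rose with the replicate block, and the smallest p was that of TK1, thymidine kinase (log2 0.75, SE 0.185, limma adjusted p = 0.061). The histone count was 5 and 3 without the first and second Control array, 1 and 3 without the first and second GADD45a+ING1b array, and 2 with only the groups compared in the fit.

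Small RNAs without a poly(A) tail were higher as well. All 18 measured members of a list of such RNAs lay above 0, beside 4884 of all 10645 genes. Of the 18, 5 rose (RNA5S9, RNU6-1, SNORD3A, RNU6ATAC and RPPH1) and 0 fell, with a median of 0.45. RNA5S9, a 5S ribosomal RNA gene with many copies, read 894 and 242 in Control and 19962 and 15237 in GADD45a+ING1b (37.5-fold, log2 5.23, SE 0.711, limma adjusted p = 0.00523). Its Control arrays lay far apart from each other, and it was also bright with ING1b alone (15664 and 12167). RNU6-1, a U6 spliceosomal RNA gene, read 2488 and 2104 in Control and 5114 and 3944 with both plasmids (log2 0.97, SE 0.187, limma adjusted p = 0.0272), and RPPH1, the RNA of ribonuclease P, read 41.2 and 32.8 in Control (not detected) and 142 and 84.3 with both plasmids (at least 1.99-fold, 0.0336). Among snoRNAs, which guide modification and processing of ribosomal RNA, 11 of 95 measured rose (11.6%, beside 1.58% of all genes) and 0 fell, with a median of 0.39 and 85 above 0. The near-identical U3 copies SNORD3A, SNORD3C and SNORD3D were among them, and whether their probes tell them apart was not tested. SNORD3A read 159 and 207 in Control and 827 and 702 with both plasmids (log2 2.07, SE 0.4, limma adjusted p = 0.0273). The snoRNA median against the same Control arrays was 0.35 with GADD45a, 0.29 with ING1b and 0.52 with GADD45a+ING1bΔPHD. The snoRNA count was 9 rises and 1 fall without Control replicate 1, and 0 without Control replicate 2 or either GADD45a+ING1b array, and 24 with the replicate block. The list of 18 had 3, 0, 0 and 1 rises without Control replicate 1, Control replicate 2, GADD45a+ING1b replicate 1 and GADD45a+ING1b replicate 2, and RNA5S9 was lost in 2 of these (limma adjusted p = 0.0526 and 0.055, with Control replicate 2 or GADD45a+ING1b replicate 1 left out).

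The largest falls included subunits of larger complexes. NDUFA13, a subunit of respiratory complex I, read 1388 and 2192 in Control and 392 and 415 in GADD45a+ING1b (4.33-fold lower, log2 -2.11, SE 0.215, limma adjusted p = 0.000805). It was the 1 of 33 measured complex I subunits that fell, and their median was -0.14. MED29, a subunit of the Mediator coactivator, read 522 and 458 in Control and 129 and 153 with both plasmids (log2 -1.80, SE 0.202, limma adjusted p = 0.00154), and was the 1 of 27 measured Mediator subunits called (median 0.02). SAC3D1, a SAC3 domain protein linked to the centrosome, read 2038 and 1899 in Control and 577 and 529 with both plasmids (log2 -1.83, SE 0.148, limma adjusted p = 0.00021). INF2, an actin-nucleating formin, read 1163 and 1202 in Control and 291 and 316 with both plasmids at its brightest probe (log2 -1.96, SE 0.152, limma adjusted p = 0.000203), while its other probes differed by -0.09 and 0.25, and with the mean over probes its call was lost (-0.60, limma adjusted p = 0.0673). ACTA2, smooth muscle actin, read 1016 and 1416 in Control and 357 and 429.5 with both plasmids (log2 -1.61, SE 0.198, limma adjusted p = 0.0027), and INF2 and ACTA2 were the 2 of 22 actin and SRF target genes that fell (median 0.06). TPX2, a spindle assembly factor, read 1178 and 834 in Control and 389 and 332 with both plasmids (log2 -1.46, SE 0.196, limma adjusted p = 0.00478), and was the 1 of 27 G2/M and spindle genes called (median 0.04). All 6 genes were also low with GADD45a alone, where NDUFA13 read 428 and 359.8, MED29 96.6 and 109, SAC3D1 504 and 602, INF2 284 and 291, ACTA2 346 and 446 and TPX2 503 and 379. With ING1b alone NDUFA13 read 1982 and 1699 and MED29 607 and 539, near their Control levels. The TPX2 call was lost without GADD45a+ING1b replicate 2 (limma adjusted p = 0.0526).

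NOP53, a nucleolar factor of ribosome assembly, read 7127 and 8522 in Control, 1824 and 2553 in GADD45a+ING1b (3.61-fold lower, log2 -1.85, SE 0.206, limma adjusted p = 0.00145), 2318 and 2567 with ING1b alone and 7558 and 7407 with GADD45a alone. It was the 1 of 27 nucleolar assembly factors that fell (median 0.05), and it was also lower than with GADD45a+ING1bΔPHD, with a log2 difference of -1.86 (limma adjusted p = 0.00233). RPS9, a protein of the small ribosomal subunit, read 12139.6 and 12271 in Control and 7099.9 and 7008 (log2 -0.79, SE 0.138, limma adjusted p = 0.0192), its second probe fell by 0.88, and 48 of the 49 measured ribosomal protein genes did not pass (median -0.02). CCDC22, a subunit of an endosomal sorting complex, read 147 and 139 in Control and 47.5 and 43.8 with both plasmids (not detected), at least 2.37-fold lower (adjusted p = 0.000449). EEF1D and DCTPP1, a translation elongation factor subunit and a nucleotide pyrophosphatase, fell at 1 of 2 probes only (-1.07 and -0.85, against 0.20 and 0.03 at the other), and both calls were lost with the mean over probes. Further genes of the largest falls were UCK1, a uridine-cytidine kinase, from 92.8 and 100.3 to 29.1 and 29.8 (not detected, at least 1.6-fold, limma adjusted p = 0.00101), BCL6B, a transcriptional repressor, from 197 and 196 to 84.3 and 42.1 (detected on 1 of 2 arrays, log2 -1.72, SE 0.267, limma adjusted p = 0.0102), and ANTKMT, a lysine methyltransferase of the mitochondrial ADP/ATP carrier, from 1166 and 1058 to 342 and 496 (log2 -1.43, SE 0.208, limma adjusted p = 0.00743). The remaining of the 20 largest falls were GGACT, FAM167A, ZBED3, ZNF7, CALY, KHDC1, SNTB1 and C17orf75. ZNF7 differed by -1.48 and SNTB1, detected on 1 of 2 arrays with both plasmids, by -1.39, while the other 6 were not detected with both plasmids and were lower by at least 1.5-fold (ZBED3) to at least 1.94-fold (GGACT). Leaving out 1 array ended the calls, by limma adjusted p, of RPS9 (0.0946 to 0.115, without Control replicate 2 or either GADD45a+ING1b array), EEF1D (0.0559 to 0.0983, without Control replicate 2 or GADD45a+ING1b replicate 1), DCTPP1 (0.0584 to 0.177, without either Control array or either GADD45a+ING1b array), BCL6B (0.0819, without Control replicate 2) and ANTKMT (0.0503 to 0.0682, without Control replicate 2 or GADD45a+ING1b replicate 1). The same held for GGACT (0.0725 to 0.17, without Control replicate 2 or either GADD45a+ING1b array, and without any of 4 arrays of other groups), FAM167A (0.0628 to 0.1, without Control replicate 2 or either GADD45a+ING1b array), ZBED3 (0.107 to 0.243, without Control replicate 2 or either GADD45a+ING1b array, and without any of 8 arrays of other groups), CALY (0.0709 to 0.0779, without Control replicate 2 or GADD45a+ING1b replicate 1), KHDC1 (0.0721 to 0.0861, without Control replicate 2 or either GADD45a+ING1b array), SNTB1 (0.0605 to 0.153, without either Control array or either GADD45a+ING1b array) and C17orf75 (0.0653 to 0.177, without either Control array or either GADD45a+ING1b array).

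Targets of p53, the DNA damage and stress regulator, held 23 measured members of which 0 rose and 3 fell, with a median of -0.32. The activity of p53 itself was not measured in these cells. XPC, which recognises damage in nucleotide excision repair, read 1237 and 1250.5 in Control and 636 and 572 in GADD45a+ING1b (log2 -1.04, SE 0.161, limma adjusted p = 0.0102), and 653 and 616 with GADD45a alone. SPATA18, a mitochondrial quality control factor, read 179.8 and 198 in Control and 83.8 and 90.1 with both plasmids (log2 -1.12, SE 0.214, limma adjusted p = 0.0269), and PHLDA3, an inhibitor of AKT, 222 and 241 in Control and 124 and 120.3 with both plasmids (log2 -0.92, SE 0.184, limma adjusted p = 0.0308). Both GADD45a+ING1b arrays lay below both Control arrays for all 118 genes that fell and for 26.1% of all genes. That the 3 p53 targets did not overlap therefore adds nothing to their calls. The count was 2 without Control replicate 1 and 0 without Control replicate 2 or either GADD45a+ING1b array, and the median was -0.06 with Control replicate 1 left out and -0.11 with GADD45a+ING1b replicate 2 left out. Of 25 nucleotide excision repair genes XPC was the 1 that fell, and 0 rose (median -0.08). Of 15 DNA methylation and demethylation genes 1 rose, MBD1, a methyl-CpG binding protein, from 60.9 and 65.7 to 118 and 107 (log2 0.83, SE 0.189, limma adjusted p = 0.0498). The MBD1 call was lost without either Control array or either GADD45a+ING1b array, and without any of 6 arrays of other groups. It was also lost with no background correction, an offset of 50, median scaling, no detection filter or the mean over probes. The trended and robust prior and a fit of only the groups compared ended it too, so MBD1 passed in 6 of 23 alternatives.

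Genes of the ATF4 and amino acid response supply amino acids under stress. They had the lowest median of all lists with 10 or more measured members, -0.44. Of 26 measured, 1 lay above 0, beside 4884 of all 10645 genes. PSAT1, the aminotransferase of serine synthesis, was the 1 that fell, from 3502 and 6698 in Control to 1211 and 1304 (3.85-fold, log2 -1.95, SE 0.247, limma adjusted p = 0.00323), and it read 1179.7 and 1338 with GADD45a alone. The Control arrays lay far apart for PSAT1. The median was -0.81 without Control replicate 1, where 10 fell, and -0.10 without Control replicate 2, where 1 rose and 1 fell. Against the same Control arrays it was -0.37 with GADD45a, -0.51 with ING1b and -0.49 with GADD45a+ING1bΔPHD. Of 15 ER chaperone and unfolded protein response genes 0 rose and 0 fell in limma (median 0.17, 3 at an unadjusted p under 0.05), though 2 rose with the replicate block, and the smallest p was that of DNAJB11, an ER co-chaperone (log2 0.66, SE 0.155, limma adjusted p = 0.0542). Among 22 cholesterol and SREBP target genes 2 rose and 1 fell (median 0.14). MVD, of the mevalonate pathway, read 123 and 140.1 in Control and 259 and 302 with both plasmids (log2 1.09, SE 0.248, limma adjusted p = 0.0489), SC5D, a late sterol desaturase, 801 and 844 in Control and 1413 and 1289.8 with both plasmids (log2 0.72, SE 0.135, limma adjusted p = 0.0254), and SREBF1, the lipogenic regulator, fell from 177 and 232 to 103 and 103 (log2 -0.97, SE 0.187, limma adjusted p = 0.0272). All 3 calls were lost without Control replicate 2 or either GADD45a+ING1b array (limma adjusted p between 0.0898 and 0.191), and MVD and SC5D also without Control replicate 1 (0.106 and 0.0535).

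Of 20 ING and SIN3-HDAC genes 2 rose and 0 fell (median 0.05). These were BRMS1, a subunit of the complex, from 122 and 98.4 to 215 and 259 (log2 1.10, SE 0.246, limma adjusted p = 0.0468), and SAP130, a SIN3-associated protein, from 633 and 548 to 1079 and 906 (log2 0.75, SE 0.168, limma adjusted p = 0.0473), and both were lost without any 1 of the Control or GADD45a+ING1b arrays (0.0532 to 0.259). Of 21 acetyltransferase and H3K4 methylation genes 0 rose and 0 fell in limma, with or without the block, 2 had an unadjusted p under 0.05, and the smallest p was that of KAT2B, an acetyltransferase (log2 -0.64, SE 0.242, limma adjusted p = 0.189). Of 16 interferon-stimulated genes 2 rose and 0 fell (median 0.06), namely ISG20, an exonuclease that degrades viral RNA, from 64.8 and 84.3 to 199.9 and 160.0 (log2 1.28, SE 0.187, limma adjusted p = 0.00764), and IRF7, from 43.0 and 34.4 (not detected) to 71.4 and 73.2 (at least 1.31-fold, 0.0482). CD14, a monocyte receptor and 1 of the 2 blood cell markers measured, rose from 62.6 and 40.3 to 157 and 143 (log2 1.58, SE 0.252, limma adjusted p = 0.0123), while the pan-leukocyte marker PTPRC was detected on 0 of the 4 arrays. CD68, the other marker measured, differed by 0.72 and did not pass, though it rose with the replicate block. ISG20 was lost without GADD45a+ING1b replicate 1, and CD14 without Control replicate 2 or either GADD45a+ING1b array. IRF7 was lost without Control replicate 2 or either array of GADD45a, ING1b or GADD45a+ING1b. Processing settings ended calls as well: IRF7 passed in 9 of the 22 alternatives that tested it and SAP130 in 7 of 23. Glycolysis and hypoxia genes (28 measured), apoptosis regulators (20), NF-kB targets (10), TGF-beta and BMP targets (10) and the metallothionein list (5) had 0 rises and 0 falls by limma, with medians between -0.18 and 0.11 and with 0, 4, 4, 1 and 1 at an unadjusted p under 0.05. With the replicate block 1 apoptosis regulator and 1 NF-kB target fell and 1 member of the metallothionein list rose. The members of these lists with the smallest p were SLC2A3 (log2 -0.49, adjusted p = 0.355), BID (log2 -0.60, adjusted p = 0.122), NFKBIA (log2 -0.56, adjusted p = 0.092), BAMBI (log2 -0.33, adjusted p = 0.247) and MTF1 (log2 1.29, adjusted p = 0.0595). MTF1 is a metal-responsive transcription factor on the metallothionein list and not itself a metallothionein.

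**Figure D4:**
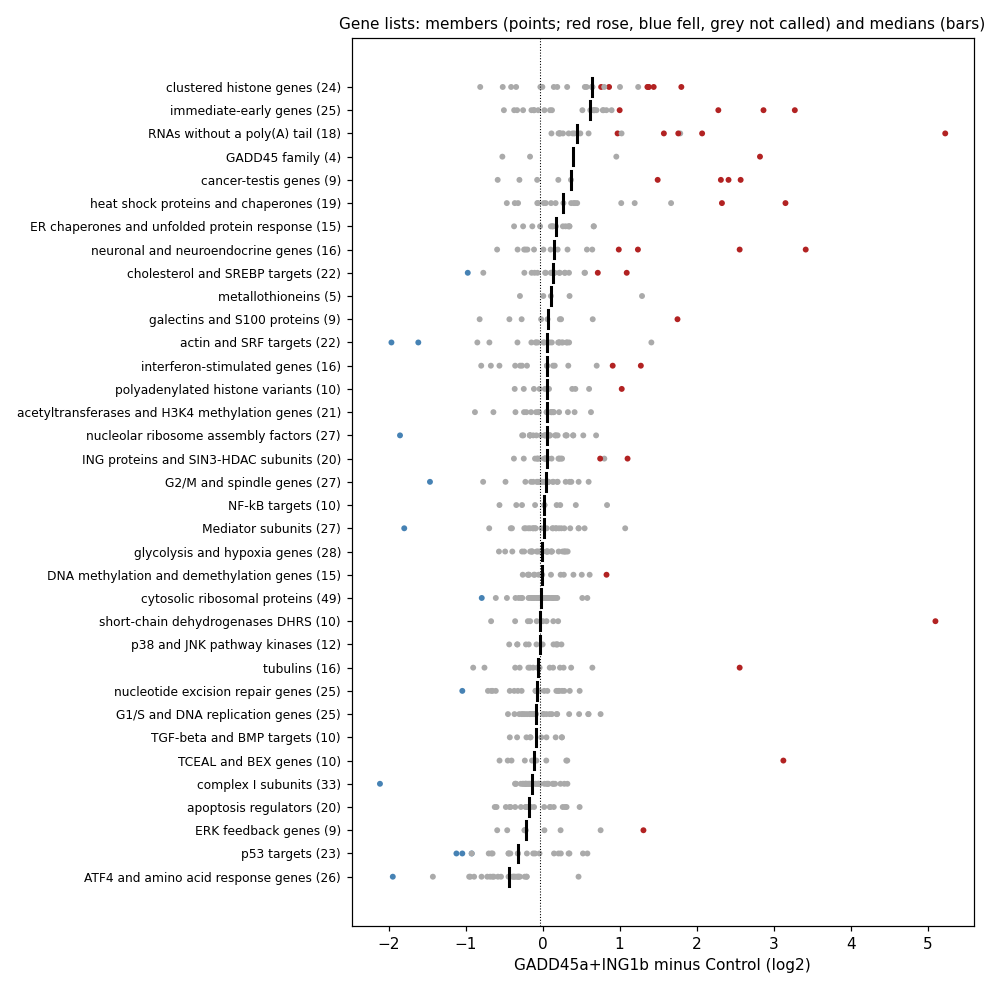
Differences between GADD45a+ING1b and Control (log2) of the measured members of each gene list, with the number measured in parentheses. Points are genes (red rose, blue fell, grey did not pass), bars are list medians, and the dotted line is the median of all 10645 genes, -0.03. Among lists with 10 or more measured members, clustered histones and immediate-early genes have the highest medians, 0.64 and 0.62, and ATF4 and amino acid response genes the lowest, -0.44.

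The joint group was then tested against the group that received GADD45a alone, where 55 genes were higher (0.517%) and 8 lower (0.0752%), 0.592% together. With the replicate block the counts were 86 and 33. RNA5S9, DHRS2, FOSB, EGR1, GADD45B, VGF, SNORD3A and TUBB3 had the largest positive differences, from 5.31 for RNA5S9 to 2.53 for TUBB3 (limma adjusted p = 0.00722 and 2.81e-05). Of the 8 lower genes NOP53 had the largest difference (-1.79, SE 0.206, 0.0035). FHL3, a LIM protein, followed with -1.58 (0.0443), then CCDC22, EEF1D, STX11, DCTPP1, RB1-DT and RPS9. STX11, a syntaxin, read 60.1 and 67.9 with GADD45a alone and 26.8 and 34.8 with both plasmids, where it was not detected, as in Control (32.1 and 31.7).

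Against ING1b alone 10 genes were higher (0.0939%) and 28 lower (0.263%), 0.357% together, or 13 and 51 with the block. Besides GGTLC1, VGF, TUBB3 and VCX3B, the higher genes included IQCN, TCIM, RFPL4A, KRTAP21-2 and PTGR2. TCIM, a small regulator of Wnt signalling, read 22.8 and 23.7 in Control, 22.9 and 26.6 with GADD45a, 28.7 and 27.5 with ING1b and 78.1 and 78.0 with both (at least 1.42-fold over Control, limma adjusted p = 0.000203). IQCN, a protein of sperm, read 29.8 and 27.9, 27.7 and 28.4, 28.9 and 27.9 and 117 and 89.9 in the same order (at least 1.86-fold over Control, 0.000721). Both were detected in none of the Control arrays, and the joint arrays stood above all arrays of the other 3 groups. RFPL4A, a gene of the oocyte and early embryo with near-identical copies, read 44.4 and 58.7, 49.4 and 65.9, 56.9 and 71.7 and 176 and 177 (log2 1.47, SE 0.2, limma adjusted p = 0.0136 against ING1b). PTGR2, a prostaglandin reductase, read 179 and 220.5, 263 and 223, 230.2 and 236 and 514 and 574 (log2 1.22, SE 0.21, limma adjusted p = 0.0464 against ING1b). The lower genes were of more than one kind. NDUFA13, MED29 and SAC3D1, at about their Control level with ING1b alone, differed by -2.19, -2.02 and -1.96 in the joint group (log2, adjusted p = 0.00194, 0.00194 and 0.000498). MYBPHL, a myosin binding protein-like gene, read 157 and 109.9 with ING1b alone and 28.3 and 24.5 with both plasmids, beside 31.5 and 28.8 in Control (joint group against ING1b, adjusted p = 0.000498). GDF15, a stress-induced cytokine, read 301 and 249 with ING1b alone, 50.2 and 74.1 with both plasmids and 84.1 and 159 in Control (adjusted p against ING1b = 0.0329). INPP5D, the phosphatase SHIP1 of blood cells, went from 89.7 and 107 to 30.4 and 31.6 (0.00315), and SPANXA2, a testis gene with near-identical copies, from 114 and 111 to 38.1 and 40.3 (0.00803). MYBPHL, INPP5D and SPANXA2 were not detected in Control or in the joint group.

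Against GADD45a+ING1bΔPHD, in which ING1b lacks the PHD finger, 48 genes were higher (0.451%) and 5 lower (0.047%), 0.498% together, or 98 and 29 with the block. DHRS2 read 46.7 and 54.0 with the truncated and 1021 and 1255 with the full-length protein (limma adjusted p = 5.69e-05). EGR1 read 102 and 158 and 1295 and 889.6 (log2 3.08, SE 0.247, limma adjusted p = 0.000319), and GADD45B 228 and 198 and 938 and 1079 (log2 2.24, SE 0.167, limma adjusted p = 0.000314). For each of these genes the truncated-protein arrays were closer to Control than to the joint group. NOP53, EEF1D, CCDC22, RPS9 and DCTPP1 were the 5 lower genes, with log2 differences of -1.86 for NOP53, -1.35 for EEF1D, -0.83 for RPS9 and -1.01 for DCTPP1, while CCDC22 was not detected in the joint group. NDUFA13, INF2, MED29 and ACTA2 differed from it by -0.39, -0.55, 0.01 and -0.11, and none of the 4 passed (adjusted p = 0.209 to 0.996), which does not show that they were alike. Counts moved with single arrays in all 3 comparisons: against GADD45a 24 and 31 without GADD45a replicate 1 and 2 and 29 and 31 without GADD45a+ING1b replicate 1 and 2, against ING1b 11 and 9 without ING1b replicate 1 and 2 and 16 and 12 without GADD45a+ING1b replicate 1 and 2, and against GADD45a+ING1bΔPHD 29 without GADD45a+ING1bΔPHD replicate 1 and 23 and 22 without GADD45a+ING1b replicate 1 and 2.

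Whether the joint difference departed from the sum of the differences with each protein was tested as an interaction. By limma 0 of 10645 genes passed, the smallest adjusted p was 0.0803, 442 genes had an unadjusted p under 0.05, and 2 genes passed with the replicate block and 1 without ING1b replicate 2. The authors' deposited values gave 8. For VGF the interaction term was 0.89 (SE 0.328, limma adjusted p = 1), for EGR1 1.27 (SE 0.35, 0.937) and for TUBB3 1.03 (SE 0.207, 0.563). The smallest p-values were those of IQCN, TCIM and CCT6B, a testis-enriched chaperonin subunit (adjusted p = 0.0803, 0.0803 and 0.563), on the positive side, and of MYBPHL, RB1-DT and SPANXA2 (0.0803, 0.0803 and 0.339) on the negative side. Each of these 6 was not detected in 1 or more of the 4 groups of the term, so no size is given for them. A gene that passed against Control in the joint group and not in a single-plasmid group is therefore not shown to respond differently from the sum. The comparisons against Control share their 2 Control arrays, so their values stand side by side only: GADD45a alone gave 20 rises and 50 falls (0.188% and 0.47%, 0.658% together), ING1b alone 40 and 6 (0.376% and 0.0564%, 0.432% together), GADD45a+ING1bΔPHD 24 and 31 (0.225% and 0.291%, 0.517% together), and both plasmids 168 and 118.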

How the data were processed

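RNA of 12 HEK293T transfections was hybridised to Illumina bead arrays after poly(A)-primed biotin labelling, per the labels' protocols. The deposited values are a summarised linear intensity and a detection p-value for each of 47323 probes on each array, exported with GenomeStudio 2011.1 per the submitters' processing notes. The authors' own normalized values are given too. They were used as an alternative after low values were raised to a floor and log2 was taken. How GenomeStudio subtracted background or averaged beads is not given here. No column of sample values was left unused (0 columns).

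The intensity values were corrected for background with normexp, with the negative controls inferred from the detection p-values (770 steps of p), an offset of 16 and quantile normalization, and put on the log2 scale (limma 3.58.1, R 4.3.3). The levels printed are these values on the linear scale, in normalized units. A probe was kept where its detection p fell below 0.01 on 2 or more of the 12 arrays, which held for 17814 of 47323, and of these 13904 carried 1 gene symbol. On the array 30113 probes had 1 symbol, 8 had several and 17202 had none, and 30074 of the first kind matched a RefSeq gene. Each gene took its brightest detected probe, leaving 10645 genes, of which 2663 had several detected probes. Levels of different probes were not set against each other.

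All 12 arrays in 6 groups of 2 were fitted together by limma with empirical Bayes moderation, and p-values were adjusted over the 10645 genes by the Benjamini-Hochberg method. A call is an adjusted p under 0.05. Where a group was not detected on either array, a bound on the fold was taken with the dim group set, array by array, at the lowest signal among detected probes or at the probe's own signal where that was higher. The members and all 41 gene lists (933 entries, 3 symbols updated through synonyms) were chosen with earlier results of these data known. Genes were named by rule: GADD45A and ING1, the 20 largest rises and 20 largest falls that passed without overlap, up to 5 passing members of each list by smallest p or the 1 with the smallest p where none passed, and up to 8 genes a direction in each other comparison. Of the genes this rule names, 1 is not reported here. The CRE genes, FOS, JUN and the snoRNAs beyond this rule were chosen after their values were seen. Promoter windows are those of RefSeq on GRCh38.p14, both strands searched. The fitting procedure was tested on simulated data.

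The labels give every group replicate numbers 1 and 2. Across the 15 pairs of groups the replicate differences correlated at 0.246 to 0.477, and at 0.391 for Control and GADD45a+ING1b, all above 0.1, so the fit with the replicate number as a block is given beside the counts. Other settings tried were the mean over probes, an offset of 50 or no background correction at all, median scaling, the deposited normalized values, a filter for detection on all 12 arrays or none, a trended and robust prior, the replicate block, only the groups compared, each array left out, and a further scaling added after seeing the data.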

Additional observations from a re-analysis of the deposited data

Results flagged for a closer look

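Among detected probes without a single gene symbol, which the gene comparisons did not use, some differed between the arrays labelled GADD45a+ING1b and the Control arrays. Of 3910 such probes 38 were higher and 19 lower by limma with adjustment over 17814 probes. The probe ILMN_1730818 read 70.1 and 53.3 normalized units in Control and 560.1 and 484 in GADD45a+ING1b (log2 3.09, detected on 1 of 2 Control arrays), and ILMN_3261387 read 30.2 and 28.4 in Control, where it was not detected, and 159 and 139 in GADD45a+ING1b. ILMN_3243644, the brightest of the 3, read 799.7 and 499 in Control and 3471 and 2919 in GADD45a+ING1b (log2 2.33). Their genes are unnamed here. Groups of 2 arrays are too small for a test of single outlying arrays.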

How the results depend on the processing

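Under only the groups compared in the fit, 40 genes rose and 9 fell against Control, and 23, 3 and 20 genes were called against GADD45a, ING1b and GADD45a+ING1bΔPHD. With the replicate block, which pairs the replicate numbers, the counts were 506, 480, 119, 64 and 127, and 2 for the interaction, and no named gene lost its call there. Median scaling gave 1391 falls against Control and 58 calls against ING1b. No background correction gave 272 rises and 97 calls against GADD45a+ING1bΔPHD, the trended and robust prior 260 and 97. With detection required on all 12 arrays, which tests fewer genes, 30, 18 and 30 genes were called against GADD45a, ING1b and GADD45a+ING1bΔPHD. The authors' deposited values gave 8 for the interaction. Leaving out 1 array gave 40 to 216 rises and 16 to 211 falls against Control, 24 to 55 calls against GADD45a, 9 to 38 against ING1b, 22 to 54 against GADD45a+ING1bΔPHD and 0 to 1 for the interaction. Of the 286 genes called against Control, 49 passed with only the groups compared, 62 when Control replicate 2 was left out, 54 and 64 when GADD45a+ING1b replicate 1 or 2 was, and 193 to 286 under each of the others, and 1 turned direction, under the mean over probes. Of 77 named genes with a call, 30 were called in every alternative that tested them. Among the named genes, values that changed sign belonged to genes that did not pass against Control: ING1 with -0.029 under median scaling, STX11, MYBPHL and INPP5D with 0.28, 0.16 and 0.15 under the scaling added after seeing the data, and, with 1 array left out, INPP5D between -0.40 and 0.021 and STX11 between -0.25 and 0.13. Except for fewer arrays or genes, the cause of these shifts was not tested. Probes near background give bounds only, and 2 arrays a group limit every p.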

Other observations

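At the edge of detection, more genes were lost than gained. Of the 10645 genes 90 were detected on both arrays labelled GADD45a+ING1b and on neither Control array, and 240 were detected on both Control arrays and on neither GADD45a+ING1b array, while 16301 and 16070 probes were detected on the Control arrays and 15441 and 15404 on the others.

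Second probes gave a further reading of the called genes. Of the 286 genes 63 had other detected probes, 74 in all, and 59 of these probes differed in the same direction as the brightest one, 10 of them with a limma adjusted p under 0.05 over all probes, while 15 differed in the opposite direction and 0 of those passed.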
